A study of Mus musculus with 12 samples.

Results

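The genes described here are 53 genes of mitosis and cytokinesis, chosen by name, among 17133 genes tested on microarrays of mouse splenic B cells. All 53 had a probe on the array, 7 of them under an older symbol, and all 53 passed the filter on dim probes. Their signal was well above background on all 12 arrays for 43 of the 53. The others reached that level on fewer arrays, from 4 arrays for Anln and 5 for Hmmr and Ttk up to 11 for Cdk1 and Espl1.

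The study deleted Ebf1, which encodes a transcription factor needed to make and keep B cells, in adult C57BL/6 mice. Mice with 2 loxP-flanked Ebf1 alleles (fl/fl) were set against mice with 1 such allele and 1 wild-type allele (+/fl). Both genotypes carried RERT-Cre, a Cre recombinase that tamoxifen activates in many cell types and not in B cells alone, and both received 3 mg tamoxifen citrate on 4 days and were killed on day 10. The control mice thus also carried Cre, had also received tamoxifen and could lose 1 Ebf1 allele. B cells were sorted from spleen and either left resting or stimulated with lipopolysaccharide (LPS), a bacterial cell wall component that drives mouse B cells to divide and to become antibody-secreting cells. The labels name 2 sort gates, B220+AA4.1- with or without CD21lo, without saying which array came from which, and neither the LPS dose and time nor the animals' age and sex could be read from them. There were 3 arrays in each of the 4 groups, numbered 1 to 3. Nothing says whether those 3 came from separate mice. The p-values therefore describe only how far these arrays scatter, possibly for technical reasons, and 3 arrays a group limit the precision.

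A dividing cell enters mitosis when cyclin B and Cdk1 become active, builds a spindle from its centrosomes, and attaches each chromosome to spindle microtubules through kinetochores. The spindle checkpoint holds the cell until all kinetochores are attached. The anaphase-promoting complex then destroys cyclin B and securin, separase cuts cohesin, the sister chromatids part, and a contractile ring divides the cell. Resting splenic B cells are mostly outside the cell cycle, so the transcripts of these genes are usually low in them and are a usual readout of how many cells divide. In these data 43 of the 53 were lower after LPS than at rest in +/fl cells and 10 were higher, without regard to a test. In fl/fl cells 18 were lower and 35 higher. Of all 17133 genes, 8778 were lower after LPS in +/fl and 8130 in fl/fl. These directions rest on a few arrays. The members' median response in +/fl moved from -0.49 to 0.45 without resting +/fl arrays 1 and 3. In fl/fl it moved from 0.29 to -0.36 without LPS fl/fl array 2. In bulk RNA, fewer dividing cells and less RNA per dividing cell cannot be told apart.

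The promoters of many such genes carry 2 short elements near the transcription start. CCAAT boxes bind the factor NF-Y, and the cell cycle genes homology region (CHR) binds the DREAM and MuvB complexes, which repress these genes in resting cells and help switch them on before mitosis. The sequences of 7 members the results turn on are shown from 120 bases before the start to 30 after it, 5′ to 3′ along the gene, from RefSeq on GRCm38.p6. Capitals mark CHR letters (TTTGAA or TTCGAA) and CCAAT on either strand.
Cdk1, chr10:69352883-69353032, minus strand: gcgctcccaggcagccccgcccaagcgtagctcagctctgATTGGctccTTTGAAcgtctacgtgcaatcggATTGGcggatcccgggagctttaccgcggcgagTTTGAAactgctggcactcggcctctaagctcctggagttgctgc
Ccnb2, chr9:70421525-70421674, minus strand: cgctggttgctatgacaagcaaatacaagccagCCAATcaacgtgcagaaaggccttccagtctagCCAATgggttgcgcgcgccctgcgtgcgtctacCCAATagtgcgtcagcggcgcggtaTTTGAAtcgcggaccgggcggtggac
Cdc20, chr4:118437314-118437463, minus strand: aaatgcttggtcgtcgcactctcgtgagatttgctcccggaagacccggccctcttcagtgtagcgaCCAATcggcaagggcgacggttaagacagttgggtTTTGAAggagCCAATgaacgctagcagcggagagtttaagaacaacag
Bub1, chr2:127831830-127831979, minus strand: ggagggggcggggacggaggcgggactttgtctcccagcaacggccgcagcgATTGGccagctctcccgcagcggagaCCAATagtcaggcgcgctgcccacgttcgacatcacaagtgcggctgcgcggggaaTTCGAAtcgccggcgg
Spc25, chr2:69206184-69206333, minus strand: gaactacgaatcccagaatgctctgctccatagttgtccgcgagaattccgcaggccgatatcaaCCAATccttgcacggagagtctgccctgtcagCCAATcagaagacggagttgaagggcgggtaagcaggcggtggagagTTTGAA
Cdc25b, chr2:131186828-131186977, plus strand: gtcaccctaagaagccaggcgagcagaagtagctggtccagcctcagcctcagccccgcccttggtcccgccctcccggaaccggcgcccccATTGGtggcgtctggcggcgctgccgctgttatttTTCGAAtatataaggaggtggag
Pttg1, chr11:43425952-43426101, minus strand: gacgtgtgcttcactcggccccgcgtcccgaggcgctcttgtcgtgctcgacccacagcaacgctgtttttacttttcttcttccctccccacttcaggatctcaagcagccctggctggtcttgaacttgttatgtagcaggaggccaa
Cdk1, Ccnb2, Cdc20, Bub1 and Spc25 stand for the genes with both elements, Cdc25b is a gene with both elements whose values run against the others, and Pttg1 holds neither in this stretch.

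RefSeq promoter windows of 300 bases, 250 before the start and 50 after it, were at hand for 44 of the 53 members. A CHR was present in the windows of 33 of the 44 members (75%), against 21.7% of the 27025 genes of the same table. CCAAT was present in 32 of 44 (72.7%), against 41.1% of all genes, and 29 of 44 (65.9%) held both, against 8.61%. An E2F element (TTTCGCGC, TTTGGCGC, TTTCCCGC or TTTGCCGC, either strand) was present in 3 of 44 (6.82%), against 2.6%. Of 58 other mitosis genes described at the end, 49 had a window, and 61.2% of these held a CHR, 36.7% both elements and 16.3% an E2F element. Of the members with a window that were called lower in resting fl/fl cells by the test described next, 12 of 20 held a CHR, and of those not called 20 of 23 did. These are matches of letters and a description of the windows.

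Levels are log2 of the scanner's processed signal minus the array's 75th percentile, so 0 is the brightness of that percentile and a step of 1 is a 2-fold difference. Levels of different genes come from different probes and are not compared. Differences were tested with limma across all 17133 genes, with Benjamini-Hochberg adjustment, and a gene was called at an adjusted p under 0.05. All 5 comparisons draw on the same 12 arrays, so each resting or LPS group serves in more than 1 comparison.

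Several arrays stood apart. LPS fl/fl array 2 had 83.2% of its spots above background where the others had 54.4% to 61.4%, and its median signal was 93.0 against 19.0 to 35.9. The resting +/fl arrays 1 and 3 had more signal from 16 monocyte, macrophage and neutrophil markers. The log2 of their summed signal was 7.19 and 6.62 there, 4.45 on resting +/fl array 2 and 3.85 to 4.48 on the resting fl/fl arrays, and Elane was above background on 1 array of the 12. Erythroid markers summed to 5.10 to 6.24 in resting +/fl and 2.96 to 6.62 in resting fl/fl, a sum in which Hba-a1, a haemoglobin gene, dominates. All 9 erythroid markers had a negative resting difference (median -1.57, 0 called by limma and 0 at an unadjusted p under 0.05), and Klf1, an erythroid transcription factor, was at -0.28 and -0.88 on resting +/fl arrays 1 and 3, -3.98 on array 2 and -4.66 to -2.87 in fl/fl. Plasma cell markers summed to 4.18 and 5.04 on resting +/fl arrays 1 and 3, 3.49 on array 2 and 2.98 to 3.74 in fl/fl. On +/fl arrays 1 and 3 that sum was mostly Jchain (3.61 and 4.63). Of the 6 plasma cell markers 5 had a negative resting difference and 0 were called. Sdc1 ran the other way (-0.32 and 0.10 on +/fl arrays 1 and 3, 0.35 to 0.58 in fl/fl). Among the resting arrays Irf4 was highest on +/fl array 2 (1.75). Resting +/fl array 3 and LPS +/fl array 1 carry the same number in their sample names. All 8 B cell markers were above background on all 12 arrays, with summed levels of 9.64 to 10.04 in resting +/fl and 9.72 to 9.93 in resting fl/fl. All 12 T and NK cell markers were above background on all arrays too, with sums of 4.83 to 5.90 in resting +/fl and up to 5.10 in resting fl/fl. Of 2 Ebf1 probes, the brighter one was higher in resting fl/fl than in resting +/fl (by 0.62 ± 0.15 SE, adjusted p = 0.0344 in limma), and the dimmer one was lower on all 3 resting fl/fl arrays (-4.21, -4.24 and -5.02 against -2.44, -2.18 and -3.16). No source at hand places these probes against the deleted part, so the brighter probe does not check the labels, and the groups are those the labels name.

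**Figure D1:**
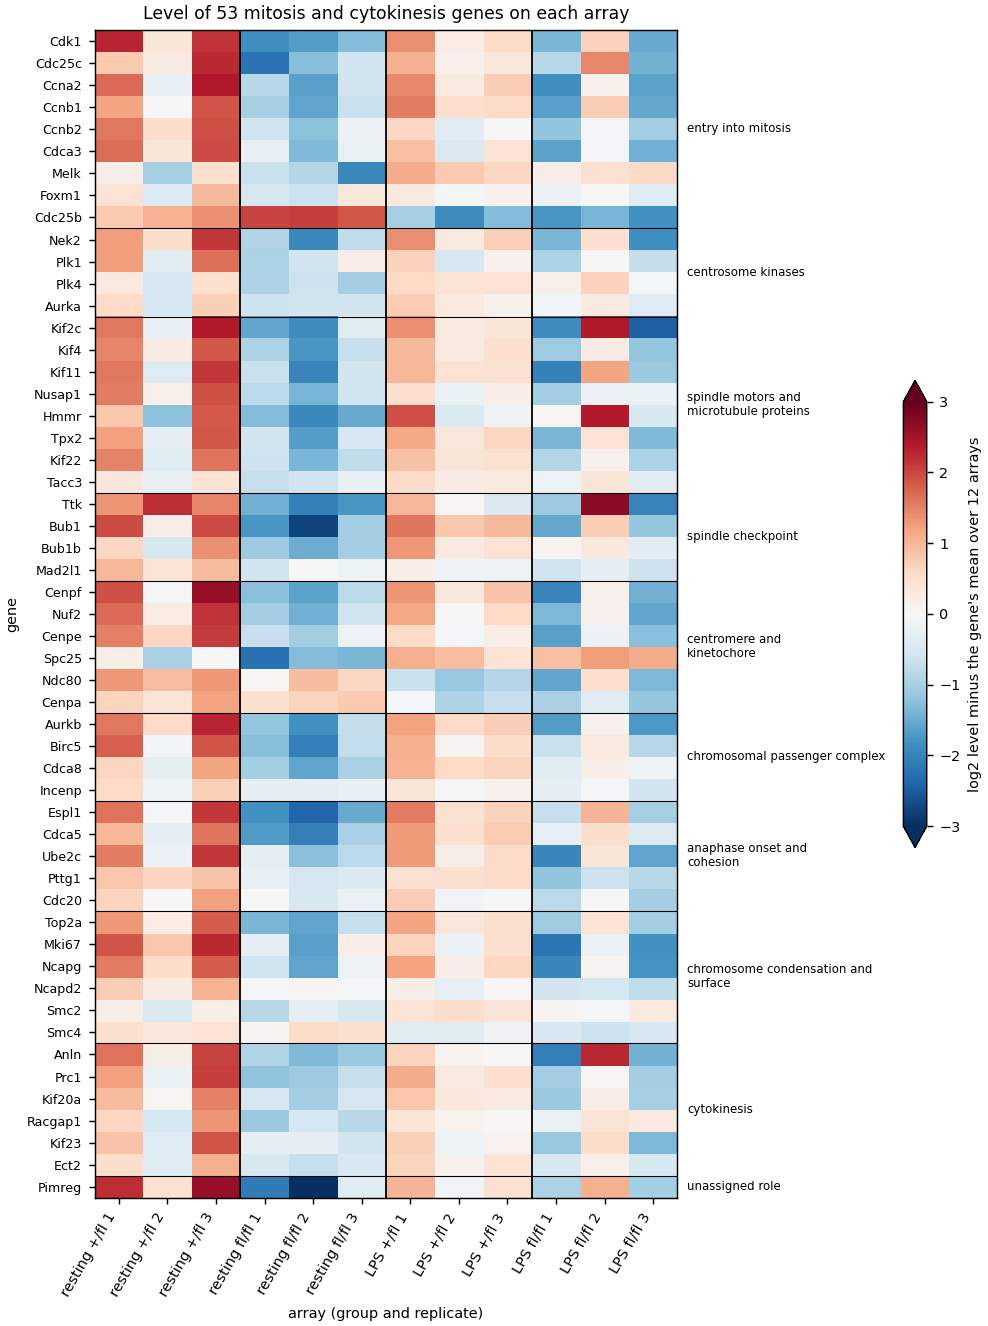
Level of each of the 53 members on each of the 12 arrays, as the log2 level minus the gene's mean over the arrays (colour, cut at 3 in either direction), with genes in role groups and, within each, in the order of the resting genotype difference. Resting +/fl arrays 1 and 3 are red for nearly all genes, resting +/fl array 2 is pale, the resting fl/fl arrays are blue or pale for most genes and red for Cdc25b, and LPS fl/fl array 2 differs from LPS fl/fl arrays 1 and 3.

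In resting B cells 22 of the 53 members were lower in fl/fl than in +/fl, 1 was higher and 30 were not called. Across all genes 8.81% were called (4.18% lower and 4.63% higher). The members' median difference was -1.94, against 0.05 over all genes, and 52 of the 53 differences were negative. All 3 fl/fl arrays lay below all 3 +/fl arrays for 41 members and above them for 1. Ttk and Anln are among the 52 and the 41, though they cleared the filter on dim probes only with the help of resting +/fl arrays. Of all genes 31.2% had groups apart, 12.6% with fl/fl below and 18.7% with fl/fl above. Differences ran from -3.69 for Pimreg, which was above background on 1 of 3 resting fl/fl arrays, to 0.93 for Cdc25b.

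The size of this difference varied with the control array. The members' median level, each gene centred on its mean over the arrays, was -0.83, -1.33 and -0.55 on the resting fl/fl arrays and 1.23, -0.02 and 1.81 on resting +/fl arrays 1, 2 and 3. Of the 3 resting +/fl arrays, array 3 was highest for 47 members and array 2 was lowest for 51. Resting +/fl array 2 lay above all 3 fl/fl arrays for 41 of the 53 members, which 29.7% of all genes did, by a median of 0.80. For arrays 1 and 3 this held for 50 and 51 members, which 30.7% and 26.8% of all genes did, with median differences of 2.23 and 2.60. Without arrays 1 and 3 limma called 0 members (10 at an unadjusted p under 0.05) and the median was -0.80. Without array 2 alone 40 were called (8.95% of all genes). Without fl/fl array 1, +/fl array 1 or +/fl array 3 the count was 1, 1 or 3 (2.94%, 3.48% or 4.36% of all genes). Among the resting arrays, the myeloid, plasma cell and T and NK cell sums given above were highest on the same arrays 1 and 3. The erythroid array medians were high there too, but the erythroid sum was highest on resting fl/fl array 1 (6.62, against 6.24 and 5.86). Germinal centre B cell markers summed to 4.30, 4.98 and 4.87 on resting +/fl arrays 1, 2 and 3 and 5.62 to 6.20 in resting fl/fl. Bcl6 dominates that sum and was called higher in fl/fl, while 4 of 5 such markers had a negative difference (median -0.55). The part of these markers in the members' resting difference was not tested. Each slide held 1 array of each resting group, and within the 3 slides the median differences were -0.87, -2.75 and -2.37.

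**Figure D2:**
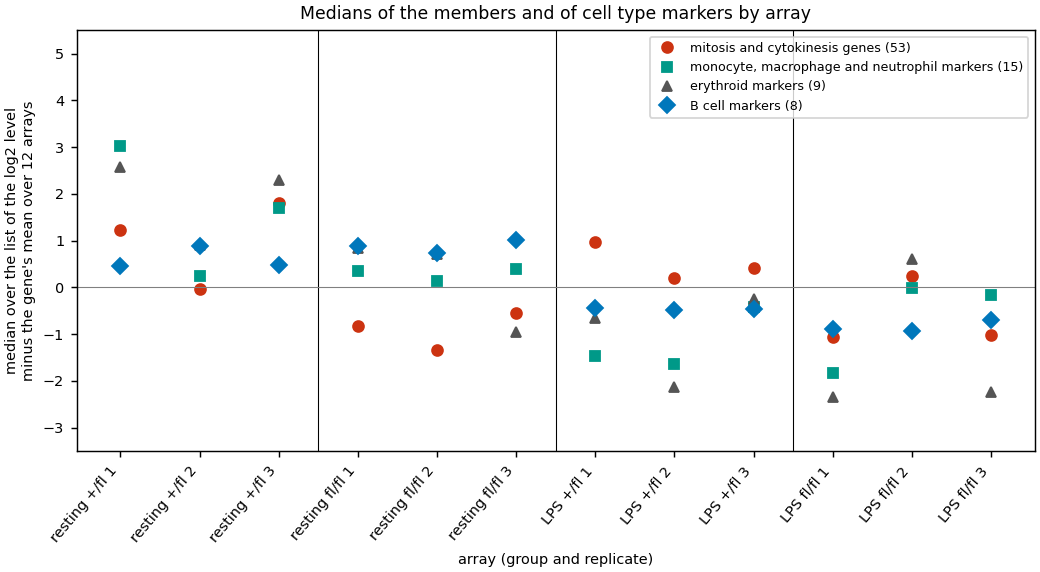
Median over each gene list of the log2 level minus the gene's mean over 12 arrays, for each array, for the 53 members, 15 monocyte, macrophage and neutrophil markers, 9 erythroid markers and 8 B cell markers. In the resting groups the members' median is above 1 on +/fl arrays 1 and 3, where the myeloid and erythroid medians are also high, near 0 on +/fl array 2 and below -0.5 on the 3 fl/fl arrays.

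Among the 9 genes of entry into mitosis, Cdk1 and Ccnb2 were lower in resting fl/fl cells, Cdc25b was higher and 6 were not called. Cdk1, the kinase that drives mitosis, stood at -4.46, -4.30 and -3.92 on the resting fl/fl arrays and at -0.35, -2.26 and -0.46 on the resting +/fl arrays. The fl/fl arrays lay close together, the +/fl arrays spread widely, and the groups did not overlap. The difference was -3.20 ± 0.66 (SE, n = 3 arrays a group; 95% interval -4.67 to -1.73), or 9.19-fold, with an adjusted p of 0.0212 in limma. Cdk1 was well above background on 2 of the 3 resting fl/fl arrays. Ccnb2, cyclin B2, a partner of Cdk1, stood at 0.41, -0.22 and 0.83 on the fl/fl arrays, against 2.58, 1.53 and 2.94 on the +/fl arrays, a 4.03-fold lower level without overlap (adjusted p = 0.0277). Ccnb1, cyclin B1, and Ccna2, cyclin A2, had differences of similar size, -2.11 ± 0.66 and -2.31 ± 0.71 (SE), and were not called (adjusted p = 0.0748 and 0.0698). For Cdc25c, a phosphatase that activates Cdk1, no resting fl/fl array was well above background, so the resting +/fl mean was at least 3.13-fold higher, against the lowest signal well above background or the probe's own where that was higher. Such bounds leave out the scatter between arrays, and Cdc25c was not called (adjusted p = 0.0725 in limma). Foxm1, a transcription factor for G2 and M phase genes, differed by -0.60 ± 0.34 with overlapping groups.

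Cdc25b encodes another phosphatase that activates cyclin-dependent kinases and was the member that ran against the others. It read 3.78, 3.84 and 3.62 on the resting fl/fl arrays and 2.54, 2.80 and 3.12 on the resting +/fl arrays. Every fl/fl array was above every +/fl array, by 0.93 ± 0.23 (SE) on average, or 1.90-fold (adjusted p = 0.0391). The difference kept its sign under all 29 alternative settings, from 0.77 to 1.08, and its call under 10 of them. Its array with the lowest level in the resting +/fl group was array 1, not array 2. Without resting +/fl arrays 1 and 3 it was 0.95 (adjusted p = 0.235).

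**Figure D3:**
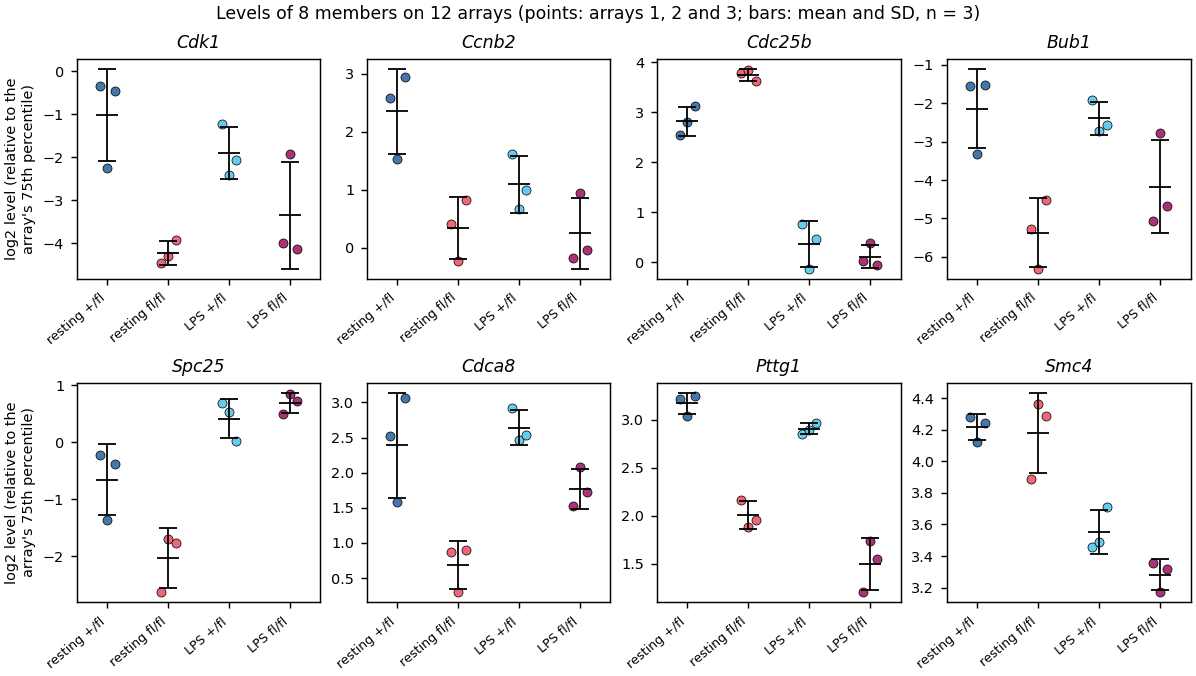
Log2 levels of 8 members, relative to the array's 75th percentile, on the 3 arrays of each group, drawn left to right as arrays 1, 2 and 3, with the mean and SD (n = 3). Cdk1, Ccnb2, Bub1 and Cdca8 have low resting fl/fl arrays and a wide resting +/fl group, Cdc25b and Smc4 drop with LPS, Spc25 rises with LPS, and Pttg1 is low in fl/fl in both states.

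Of the 4 centrosome kinases, Nek2 and Plk4 were lower in resting fl/fl cells and Aurka and Plk1 were not called. Nek2, which splits the paired centrosomes, read -3.22, -4.26 and -3.08 on the fl/fl arrays, against -1.08, -1.79 and -0.22 on the +/fl arrays. The groups did not overlap and differed by -2.49 ± 0.63 (SE; adjusted p = 0.0402). Plk4, the kinase that starts centriole duplication, read -3.35, -3.05 and -3.45 against -2.12, -2.90 and -1.93, a difference of -0.96 ± 0.26 (adjusted p = 0.0498). Here resting +/fl array 2 lay just above the fl/fl arrays. Plk1, which acts at several steps from mitotic entry to cytokinesis, had overlapping groups, since +/fl array 2 at -0.18 was below fl/fl array 3 at 0.36.

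Spindle motors and microtubule proteins had negative differences in all 8 members, and 2 of the 8 were called lower. Nusap1, which bundles spindle microtubules, read -1.99, -2.58 and -1.73 on the resting fl/fl arrays, against 0.37, -1.04 and 0.71 on the resting +/fl arrays (difference -2.11 ± 0.44 SE, adjusted p = 0.0224). Kif4, a chromosome-bound kinesin, read -2.59, -3.39 and -2.34 against -0.19, -1.40 and 0.22 (difference -2.32 ± 0.49, adjusted p = 0.0238). Neither gene had an overlap between groups. Tpx2, which helps to assemble the spindle, and Kif22, a kinesin of the chromosome arms, differed by -1.84 and -1.82 without overlap and were not called (adjusted p = 0.0927 and 0.0521). Hmmr, a microtubule-binding spindle protein, was above background on 2 resting +/fl arrays and on no resting fl/fl array, at least 1.03-fold higher in +/fl. Kif11, the motor that pushes the spindle poles apart, and Kif2c, a microtubule depolymerase, were each above background on 1 of 3 resting fl/fl arrays.

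The spindle checkpoint genes Bub1, Bub1b and Mad2l1 were lower, and the fourth, Ttk, was not called. Bub1, a kinase of the kinetochore checkpoint, read -5.27, -6.31 and -4.53 on the resting fl/fl arrays, against -1.56, -3.33 and -1.53 on the resting +/fl arrays. It was well above background on 1 of the 3 fl/fl arrays and on all 3 +/fl arrays, and the difference was -3.23 ± 0.70 (SE; adjusted p = 0.0246). Mad2l1, the MAD2 protein that blocks the anaphase-promoting complex, read -0.90, -0.36 and -0.49 against 0.66, 0.05 and 0.61, a 2.03-fold difference without overlap (adjusted p = 0.0196). Bub1b, its partner BUBR1, differed by -1.70 ± 0.43 (adjusted p = 0.0400). Ttk, the MPS1 kinase, was above background on no resting fl/fl array and on all 3 resting +/fl arrays, with a mean at least 2.17-fold higher in +/fl. It cleared the filter on dim probes only with the help of those +/fl arrays, which favours a lower fl/fl level. For Ttk, resting +/fl array 2 was the highest of its group, at -3.54 against -4.43 and -4.30.

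At the centromere and kinetochore 4 of 6 members were lower (Cenpe, Cenpf, Nuf2 and Spc25), and Cenpa and Ndc80 were not called. Cenpe, the kinetochore motor, read -0.04, -0.39 and 0.50 on the resting fl/fl arrays, against 2.17, 1.29 and 2.76 on the resting +/fl arrays, a difference of -2.05 ± 0.44 (SE; adjusted p = 0.0252). Nuf2 and Spc25 are subunits of the NDC80 complex that holds microtubules, and they differed by -2.39 ± 0.58 and -1.38 ± 0.34 (adjusted p = 0.0348 and 0.0372). Ndc80, which gives that complex its name, read -2.15, -1.22 and -1.56 against -0.88, -1.25 and -0.88. Its groups overlapped and its difference was -0.64 ± 0.47. Cenpa, the histone H3 variant of centromeres, read -0.14, 0.07 and 0.18 on the fl/fl arrays, against 0.06, -0.23 and 0.61 on the +/fl arrays, with a difference of -0.11 and a 95% interval of -0.76 to 0.54.

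The chromosomal passenger complex corrects wrong attachments and later marks the cleavage plane, and 3 of its 4 subunits were lower in resting fl/fl cells. Its kinase Aurkb read -4.11, -4.77 and -3.67 on the fl/fl arrays, against -1.36, -2.37 and -0.66 on the +/fl arrays (difference -2.72 ± 0.56 SE, adjusted p = 0.0217). Cdca8, the borealin subunit, read 0.87, 0.30 and 0.91 against 2.52, 1.58 and 3.07 (difference -1.70 ± 0.34, adjusted p = 0.0196). Birc5, survivin, differed by -2.55 ± 0.56 (adjusted p = 0.0269). Incenp, the scaffold of the complex, differed by -0.64 ± 0.22 without overlap and was not called (adjusted p = 0.0931).

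Of 5 genes of anaphase onset and cohesion, Pttg1, Cdca5 and Espl1 were lower in resting fl/fl cells. Pttg1, or securin, the inhibitor that holds separase until anaphase, read 2.17, 1.89 and 1.96 on the fl/fl arrays, against 3.22, 3.04 and 3.25 on the +/fl arrays. Both groups were tight, and resting +/fl array 2 lay with the other control arrays. The difference was -1.17 ± 0.14 (SE; 95% interval -1.48 to -0.85), or 2.24-fold, and Pttg1 had the smallest adjusted p of the 53 members, 0.00375 in limma. Espl1, separase itself, differed by -3.13 ± 0.65 (adjusted p = 0.0217), and Cdca5, or sororin, which protects cohesin on sister chromatids, by -2.34 ± 0.48 (adjusted p = 0.0211). Cdc20, which activates the anaphase-promoting complex, read 2.17, 1.72 and 1.99 against 2.85, 2.17 and 3.42, and its groups overlapped. Ube2c, the ubiquitin-conjugating enzyme of that complex, differed by -1.94 ± 0.70 and was not called (adjusted p = 0.107).

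In the group of chromosome condensation and surface genes 1 of 6 members was called. Top2a, the topoisomerase that untangles sister chromatids, read -2.83, -3.06 and -2.15 on the resting fl/fl arrays, against -0.17, -1.25 and 0.34 on the resting +/fl arrays (difference -2.32 ± 0.50 SE, adjusted p = 0.0247). Mki67, the Ki-67 protein that coats mitotic chromosomes and is a common marker of cycling cells, read 0.93, -0.43 and 1.39 against 3.09, 2.01 and 3.44. Its groups did not overlap, and with an adjusted p of 0.0547 it was not called. Ncapg, a condensin subunit, differed by -2.09 ± 0.59 (adjusted p = 0.0567). Smc4, a core subunit of condensin, read 3.89, 4.37 and 4.29 on the fl/fl arrays, against 4.28, 4.12 and 4.24 on the +/fl arrays. Its groups overlapped, and its difference of -0.04 was the smallest in size of the 53.

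For cytokinesis, 1 of 6 members was called lower in resting fl/fl cells. Prc1, which bundles the microtubules of the central spindle, read -1.49, -1.38 and -0.97 on the fl/fl arrays, against 0.95, -0.48 and 1.78 on the +/fl arrays (difference -2.03 ± 0.52 SE, adjusted p = 0.0417). Kif20a, a kinesin of the central spindle, and Ect2, the exchange factor that starts ring contraction, differed by -1.53 and -0.96 without overlap and were not called (adjusted p = 0.0516 and 0.0936). Racgap1 and Kif23, the 2 parts of centralspindlin, had overlapping groups. Anln, anillin of the contractile ring, was above background on no resting fl/fl array and on 2 resting +/fl arrays. Its mean was at least 1.36-fold higher in +/fl, and it was not called (adjusted p = 0.135 in limma). Anln cleared the filter on dim probes only with the help of its resting +/fl arrays, which favours a lower fl/fl level. Pimreg, a mitotic protein that was put in no role group, read -6.03, -7.25 and -4.30 against -1.71, -3.48 and -1.32, with a difference of -3.69 ± 0.85 (adjusted p = 0.0311). It was above background on 1 of the 3 fl/fl arrays.

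**Figure D4:**
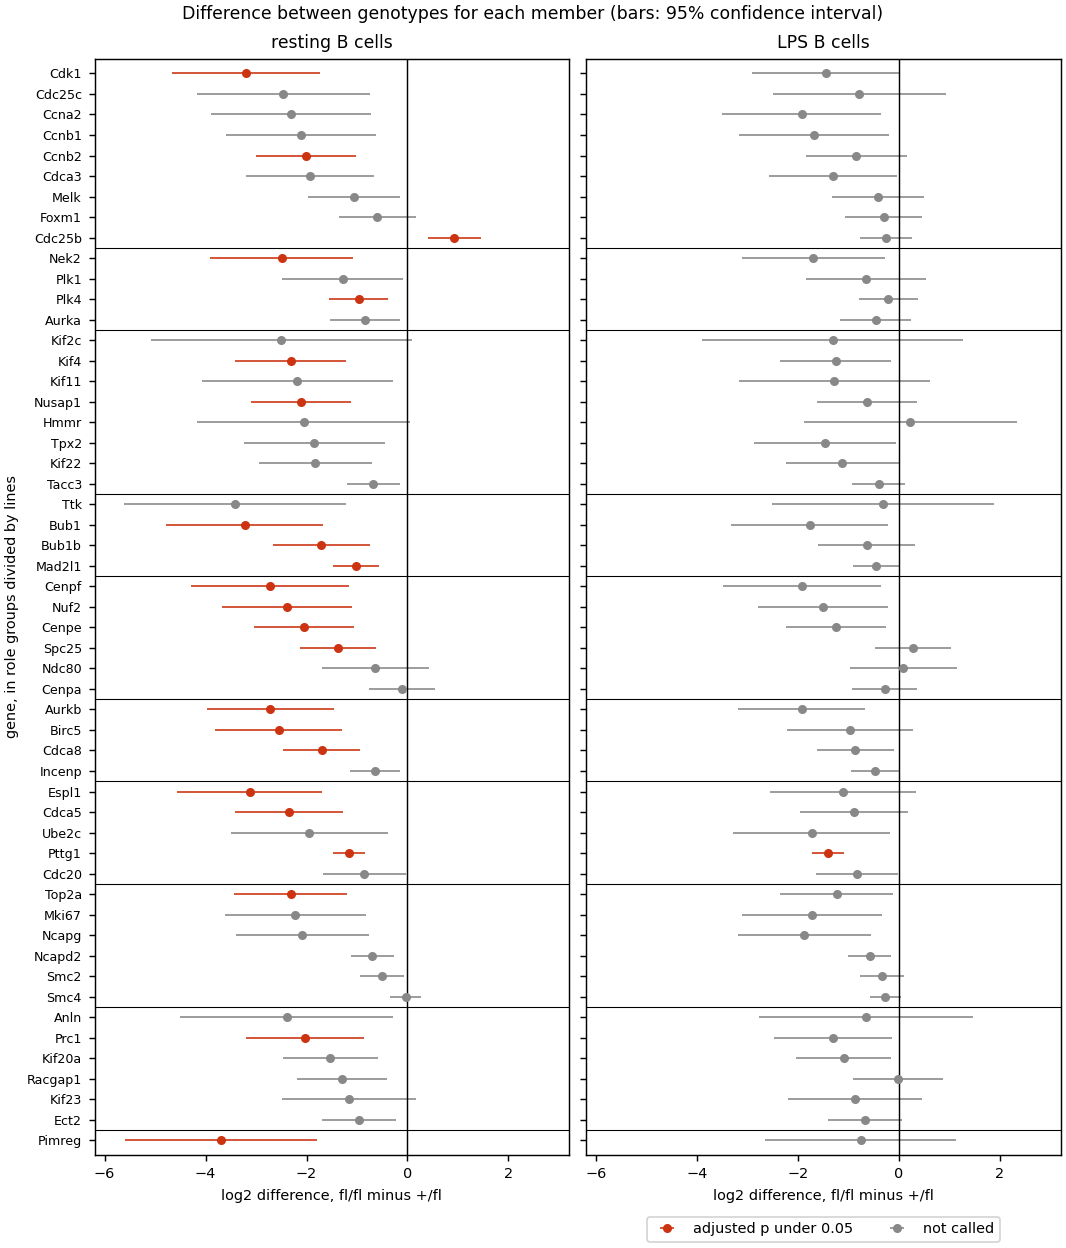
Difference between genotypes (log2, fl/fl minus +/fl) with its 95% confidence interval for each of the 53 members in resting (left) and LPS-stimulated (right) B cells, red where the adjusted p was under 0.05. In resting cells 22 members are red to the left of 0 and Cdc25b is red to the right, and in LPS cells 50 of 53 points lie left of 0 and Pttg1 is red.

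After LPS, 1 of the 53 members differed between genotypes by the same test. Pttg1 was lower in fl/fl, and no member was higher. Across all genes 1.69% were called, 0.805% lower and 0.887% higher. The members' median difference was -0.87, against 0.04 over all genes, and 50 of the 53 differences were negative. At an unadjusted p under 0.05 there were 22 members. Of the markers of other cells, T and NK cell markers summed to 3.88 to 4.26 in LPS fl/fl and 3.36 to 3.66 in LPS +/fl. Differences were positive for 11 of 12 of them and 14 of 15 myeloid markers (medians 0.68 and 0.73, limma calling 0 in either list and 3 and 2 at an unadjusted p under 0.05) and negative for 6 of 9 erythroid markers (median -0.46). Their part in the members' differences was not tested. The LPS fl/fl arrays lay below all LPS +/fl arrays for 19 members and above them for 0. Of all genes 33.4% had groups apart, 18.1% with fl/fl below and 15.3% with fl/fl above.

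Pttg1 read 1.21, 1.74 and 1.55 on the LPS fl/fl arrays and 2.85, 2.89 and 2.97 on the LPS +/fl arrays. As in resting cells, each group was narrow and the groups were apart. The difference was -1.40 ± 0.14 (SE, n = 3 arrays a group; 95% interval -1.72 to -1.09), or 2.65-fold, with an adjusted p of 0.00524. Over 29 alternative settings the difference ran from -1.93 to -0.96 and 25 kept the call, with adjusted p from 0.000189 to 0.837. The call was lost with the slide as a fixed block (adjusted p = 0.0864), with only the 6 LPS arrays in the fit (0.0587), without the 2 +/fl arrays that share a name number (0.0520) and with normexp background correction (0.837). In resting cells 26 of 29 settings kept the Pttg1 call. It was lost without resting +/fl arrays 1 and 3 together (difference -1.04, adjusted p = 0.0888), with median scaling (0.0832) and with normexp correction (1).

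The size of the other members' differences after LPS, though not their mostly negative direction, varied with LPS fl/fl array 2. That array was the highest of its group for 50 of the 53 members. LPS fl/fl arrays 1 and 3 each lay below all 3 LPS +/fl arrays for 50 members, which 33.4% and 34.8% of all genes did. Array 2 did so for 19 members, as did 33.1% of all genes, and lay above all 3 for 10, as did 39.9% of all genes. Median differences from the LPS +/fl mean were -1.35 and -1.45 for arrays 1 and 3 and -0.26 for array 2. This is the array with 83.2% of spots above background, and the part of that signal in the members' levels was not tested. Without it 3 members were called lower, Aurkb (-2.54, adjusted p = 0.0409), Ncapg (-2.53, 0.0473) and Pttg1 (-1.53, 0.00317), and the median was -1.47. With limma's array weights 31 members were called lower, against 15.9% of all genes called in either direction. With arrays scaled to their median 19 were called lower, against 1.17% of all genes called in either direction. Under that scaling the median of all genes was -0.49. Slide 2 was the slide with both LPS genotypes, 1 array each, and there 52 of 53 differences were negative with a median of -1.82.

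The members with the smallest p in their role groups show the same spread. Ccna2 read -2.43, -0.46 and -2.20 on LPS fl/fl arrays 1, 2 and 3 and 0.84, -0.30 and 0.14 on the LPS +/fl arrays. Aurkb read -4.62, -2.82 and -4.68 against -1.74, -2.38 and -2.20, and its difference of -1.93 ± 0.56 (SE) was not called (adjusted p = 0.105). In both genes fl/fl array 2 lay nearer to the control arrays than to the other 2 of its own group. Ncapg read -2.27, -0.24 and -2.10 against 0.88, -0.13 and 0.28. Bub1 read -5.05, -2.78 and -4.67 against -1.92, -2.72 and -2.56. For both, array 2 fell just below the lowest control array, so the groups did not overlap. Kif4 read -2.72, -1.41 and -2.82 against -0.67, -1.36 and -1.15, again with array 2 just below the controls. Nek2 read -3.69, -1.82 and -4.17 against -0.93, -2.05 and -1.60, where array 2 lay among the controls. Cenpe read -0.96, 0.49 and -0.59 against 1.23, 0.60 and 0.85, and Kif20a read -0.67, 0.65 and -0.55 against 1.26, 0.74 and 0.71. Their differences of -1.25 ± 0.44 and -1.10 ± 0.42 were not called (adjusted p = 0.154 and 0.176). Kif2c does not have the smallest p of its role group and was added after its values were seen. It read -6.23, -1.98 and -6.81 against -2.98, -4.09 and -4.00, and was above background on 1 of the 3 LPS fl/fl arrays, array 2 having the highest value of all 6.

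For a few members the estimated genotype difference after LPS was near 0, with intervals that reach well to either side. Spc25 read 0.50, 0.85 and 0.72 on the LPS fl/fl arrays, against 0.70, 0.52 and 0.02 on the LPS +/fl arrays, a difference of 0.28 with a 95% interval of -0.48 to 1.03. Cdc25b, which was higher in resting fl/fl cells, read 0.02, 0.38 and -0.05 against 0.77, -0.13 and 0.47 (difference -0.26, 95% interval -0.78 to 0.26). Both sets of groups overlapped. Racgap1 differed by -0.02 ± 0.40 (SE) and Ndc80 by 0.09 ± 0.47.

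After LPS fewer of the members than of all genes were called against resting cells. In +/fl cells 8 members were lower and 1 higher after LPS, 9 of 53, where 57.7% of all genes were called (27.4% lower, 30.4% higher). In fl/fl cells 8 were higher and 6 lower, where 55.6% of all genes were called (29.9% higher, 25.7% lower). Resting and LPS arrays did not overlap for 13 members in +/fl (10 lower and 3 higher after LPS) and for 16 in fl/fl (5 lower and 11 higher), against 65.7% and 62.1% of all genes. Markers of other cells fell with LPS in +/fl, 10 of 15 myeloid (median -3.19), 6 of 9 erythroid (-2.75) and 7 of 12 T and NK cell markers (-1.35), and in fl/fl 6, 2 and 5 of them did (medians -0.56, -2.18 and -0.33), with 3 myeloid and 1 T and NK cell marker higher. Their part in the members' responses was not tested. The median response was -0.49 in +/fl and 0.29 in fl/fl, against -0.03 and 0.06 over all genes. Leaving out any 1 array kept the +/fl median negative (-1.004 to -0.058). Without resting +/fl arrays 1 and 3 the +/fl median was 0.45, and 6 members were higher and 1 was lower. The fl/fl median turned with 1 array. Without LPS fl/fl array 2 the fl/fl median was -0.36, and 4 members were higher and 6 lower. The fl/fl median was also negative with array weights, with the slide as a fixed block and with normexp correction. Within slides the medians were 0.22 and -0.27 in +/fl (slides 1 and 2) and 0.10 and 0.22 in fl/fl (slides 2 and 3).

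**Figure D5:**
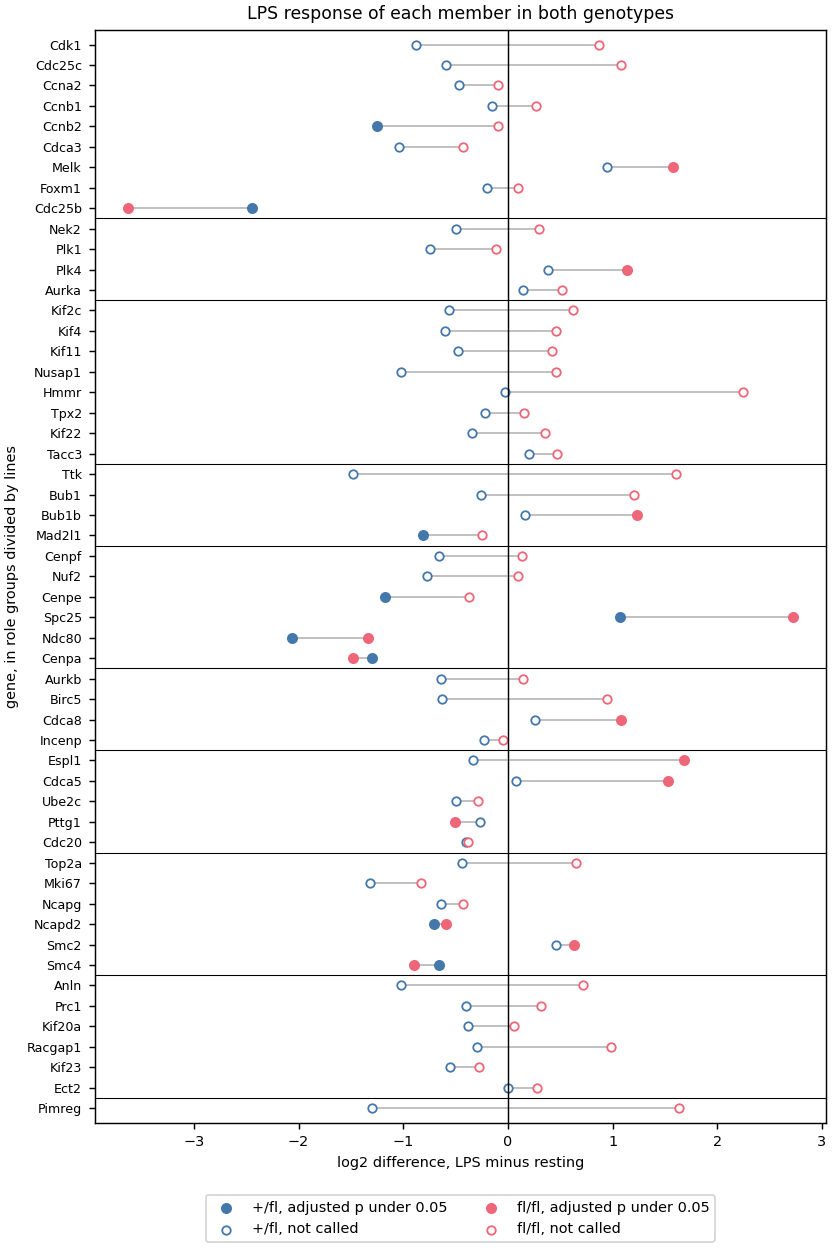
LPS response (log2 difference, LPS minus resting) of each of the 53 members in +/fl (blue) and fl/fl (red) cells, filled where the adjusted p was under 0.05. Cdc25b lies far to the left and Spc25 to the right in both genotypes, Cenpa, Ndc80, Ncapd2 and Smc4 are filled to the left in both, and for 49 of 53 members the red point lies right of the blue one.

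Members that changed with LPS in both genotypes were Cdc25b, Cenpa, Ndc80, Ncapd2 and Smc4, which fell, and Spc25, which rose. Cdc25b fell by 2.45 in +/fl (5.46-fold, adjusted p = 1.03e-05) and by 3.63 in fl/fl (12.4-fold, adjusted p = 8.59e-07), from resting levels of 2.54 to 3.84 to LPS levels of -0.13 to 0.77. No LPS array overlapped a resting array. Cenpa read -0.65, -1.53 and -1.29 on the LPS +/fl arrays and -1.59, -0.99 and -1.76 on the LPS fl/fl arrays, below its resting levels given above in both genotypes (2.47-fold and 2.80-fold lower, adjusted p = 0.00313 and 0.00152). A dim second Cenpa probe, above background on 4 arrays, gave -0.93 and 0.06. Smc4 read 3.46, 3.49 and 3.71 after LPS in +/fl and 3.36, 3.17 and 3.32 in fl/fl. It fell by 0.66 ± 0.14 (SE; adjusted p = 0.00205) and by 0.90 ± 0.14 (adjusted p = 0.000314), and no LPS array reached a resting array. Ndc80 read -2.84, -3.30 and -3.04 in LPS +/fl and -3.74, -1.68 and -3.52 in LPS fl/fl. It fell by 2.06 (adjusted p = 0.00375) and by 1.34 (adjusted p = 0.0348), and in fl/fl its groups overlapped through array 2. Ncapd2, a condensin subunit, fell by 0.71 and by 0.60 (adjusted p = 0.00924 and 0.0224). Spc25 rose by 1.07 ± 0.34 in +/fl (adjusted p = 0.0204) and by 2.72 ± 0.34 in fl/fl (6.61-fold, adjusted p = 7.55e-05). Its resting level was the lower in fl/fl, and its resting and LPS arrays did not overlap in either genotype. The Spc25 and Cdc25b calls in both genotypes held with LPS fl/fl array 2 left out and with resting +/fl arrays 1 and 3 left out. The Spc25 call in +/fl was lost without resting +/fl array 2 (adjusted p = 0.0694), LPS +/fl array 1 (0.0704), LPS +/fl array 2 (0.0587) or the 2 arrays that share a name number (0.0762), and with normexp correction (0.251). Without resting +/fl arrays 1 and 3, the falls of Cenpa, Ndc80, Ncapd2 and Smc4 in +/fl were not called (adjusted p = 0.0842, 0.0807, 0.255 and 0.0553), nor was that of Ndc80 in fl/fl (0.0618).

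Other calls came in 1 genotype. In +/fl cells Ccnb2, Cenpe and Mad2l1 fell, by 1.26, by 1.18 and by 0.81 (adjusted p = 0.0340, 0.0436 and 0.00657). None of these 3 was called without resting +/fl arrays 1 and 3. In fl/fl cells Cdca5, Espl1, Plk4, Cdca8, Smc2, Melk and Bub1b rose. Plk4 read -2.27, -1.72 and -2.45 after LPS, above its resting fl/fl arrays by 1.13 ± 0.26 (SE; adjusted p = 0.00406). Bub1b read -1.18, -0.94 and -1.57 after LPS against -2.35, -2.74 and -2.29 at rest, a rise of 1.23 ± 0.43 (adjusted p = 0.0338). Melk, a kinase of cycling cells, rose by 1.58 ± 0.41 (adjusted p = 0.00772), and Smc2, the partner of Smc4 in condensin, by 0.63 ± 0.19 (adjusted p = 0.0187). Their resting and LPS arrays did not overlap. Of the other 2 Smc2 probes above background on all 12 arrays, which were nearly as bright, the response in fl/fl was -0.15 and 0.07, so the Smc2 call rests on the probe chosen. Espl1, Cdca5, Cdca8 and Bub1b were not called without LPS fl/fl array 2, while Plk4, Melk and Smc2 were. Pttg1 fell by 0.50 ± 0.14 in fl/fl (adjusted p = 0.0123) and differed by -0.27 ± 0.14 in +/fl (adjusted p = 0.138). Hmmr, above background on no resting fl/fl array and on 2 LPS fl/fl arrays, had a mean at least 1.19-fold higher after LPS and was not called. Racgap1 differed by 0.98 ± 0.40 in fl/fl and was not called (adjusted p = 0.0583).

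The difference between the 2 LPS responses was tested as an interaction, and limma called 0 of the 53 members, with 0.175% of all genes called. At an unadjusted p under 0.05 there were 5 members (Spc25, Cdc25b, Pimreg, Nusap1 and Racgap1). Spc25 had 1.65 ± 0.48 (SE; adjusted p = 0.124) and Cdc25b -1.18 ± 0.33 (adjusted p = 0.116), the fl/fl response minus the +/fl response. The median over the members was 0.73 and 49 of 53 values were positive. The median moved to -0.25 without resting +/fl arrays 1 and 3 and to 0.24 without LPS fl/fl array 2. The 95% intervals were wide, for Cdk1 -0.33 to 3.83, so a different LPS response of these genes between genotypes was neither shown nor bounded closely.

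Other mitosis genes, 58 with a measured probe, showed a like pattern in resting cells, where 21 were lower, 1 was higher and the median was -1.37. The genes named here were picked for a small p in a contrast and are not typical of the list. Cenpk of the inner kinetochore differed by -2.13 ± 0.30 (SE, adjusted p = 0.00647 in limma). Ckap2, a spindle protein, differed by -2.27 ± 0.34 (adjusted p = 0.00769). Cks1b, a small subunit of cyclin-dependent kinases, differed by -1.90 ± 0.30 (adjusted p = 0.00903). After LPS 0 of the 58 were called between genotypes, with 18 at an unadjusted p under 0.05. With LPS 15 were higher and 6 lower in +/fl, and 18 higher and 6 lower in fl/fl, where 30.4% and 29.9% of all genes were higher, so their rises were near the background. Gtse1, which acts on microtubules in G2 and M phase, had the largest rise of the 58 in both genotypes. It rose by 4.69 ± 0.38 in +/fl and 7.40 ± 0.38 in fl/fl (adjusted p = 3.51e-06 and 2.58e-07 in limma). The medians of the 58 were -0.20 and 0.47. Core subunits of the anaphase-promoting complex and cohesin are mostly present through the whole cell cycle. Of these, limma called 0 of 18 between genotypes in resting cells and 0 of 18 after LPS (1 and 4 at an unadjusted p under 0.05). Their medians were 0.08 and -0.15. Of all genes 8.81% and 1.69% were called, so these counts of 0 lie near the background.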

How the data were processed

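RNA from 12 samples was measured on 1-colour Agilent arrays (design 014868) on 3 slides of 4, scanned on 1 day. The deposited intensity values (processed signal) came from Agilent Feature Extraction, version 9.5.3.1 per the file headers and 9.1 per the submitters' processing notes. Here outlier spots were left out, signals were scaled to each array's 75th percentile and put on a log2 scale, and spots of a probe were averaged. Probes that cleared background on 3 or more of the 12 arrays were kept (25677 of 41174), with the brightest probe per gene. For 19 members with 2 or more such probes the resting genotype difference had 1 sign over all probes, and the LPS difference had in 16 (not Cdc25b, Cenpa and Smc4). The LPS response had 1 sign in 17 of the 19 in +/fl and 14 in fl/fl. limma 3.58.1 (R 4.3.3) was fitted to group means over all 12 arrays with eBayes, and the script was tested on simulated data. Signals deposited by the authors as a value table (intensity) served as an alternative, since they ranked as the scanner values did. The 53 members, the role groups and the comparison lists were chosen with earlier results of these data known. Members shown on every array were those with the smallest p of each role group in a genotype contrast or LPS response and those called against the majority; Ccnb2, Cdc20, Mki67, Kif2c, Ttk and Plk1 were added after their values were seen. A pairing by replicate number was not seen (same-number correlations of -0.15 to 0.13). The 2 arrays that share a number in their sample names had a correlation of 0.133, the highest between arrays of different groups.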

Additional observations from a re-analysis of the deposited data

How the results depend on the processing

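The resting count of 23 members called (22 lower) became 0 (limma; 15 at an unadjusted p under 0.05) with normexp background correction, under which 0 of all 17133 genes were called. On 4 arrays 1 to 19 spots had a local background over 2 times the array's median, and with those replaced by the median the count was 29 (chosen after seeing the data). It was 1 without the filter on dim probes, 1 at an adjusted p of 0.01, 2 with only the 6 arrays compared, 5 with the replicate block, 1 without the 2 arrays sharing a name number and 0 without resting +/fl arrays 1 and 3. Leaving out 1 array in turn gave 1 to 40. The share of all genes called was 8.81% in the reported fit, 1.52% without the filter and 1.12% at an adjusted p of 0.01. It was 9.6% with those spots replaced, 0.782% with only the 6 arrays compared and 4.23% with the replicate block. After LPS the genotype count of 1 became 31 with array weights, 19 with median scaling, 2 with quantile normalization or the authors' deposited values, and 0 with normexp, the slide as a fixed block, only the 6 arrays compared or without the arrays sharing a number (limma; 14, 41, 24 and 5 at an unadjusted p under 0.05), with 1 to 3 leaving out 1 array. Over all genes 15.9% were called with array weights, 1.17% with median scaling, 0.0292% with the slide block, 0.187% with 6 arrays and 0% with normexp. The LPS response count in +/fl, 9, was 1 with normexp and 17 with repaired normexp (8.61% and 66.9% of all genes), and 6 to 15 leaving out 1 array. These 9 were 1 higher and 8 lower, and 2 and 4 with median scaling. In fl/fl, 14 became 6 at an adjusted p of 0.01, 3 with normexp and 9 with median scaling (43.4%, 13.9% and 35% of all genes), and 8 to 16 leaving out 1 array. The interaction count was 0 in the 28 other settings run (limma; 0 to 21 at an unadjusted p under 0.05, against 5 in the reported fit). The replicate block changed no other count by more than 1.5 times.

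Medians that reversed: in fl/fl after LPS, -0.23 with array weights, -0.50 with normexp, -0.12 with repaired normexp, -0.13 with the slide block and -0.36 without LPS fl/fl array 2 (-0.36 to 0.53 leaving out 1 array); in +/fl, 0.45 without resting +/fl arrays 1 and 3; the interaction, -0.16 with normexp, -0.017 with the slide block and -0.25 without those 2 arrays. Single members were followed for the differences with the smallest p of each role group and those called against the majority. In this set the LPS responses that follow reversed, none of them called. In +/fl without those 2 arrays these were Anln (0.079), Aurkb (0.27), Nusap1 (0.026) and Pimreg (0.012). In fl/fl they were Hmmr (-0.91), Pimreg (-0.91) and Racgap1 (-0.12) with normexp, and Hmmr (-0.19) and Pimreg (-0.20) with repaired normexp. Plk4 in +/fl reversed with either (-0.21 and -0.22), and Pttg1 in +/fl with median scaling (0.0071). Outside this set, the resting genotype difference kept its sign in 25 of 29 settings for Smc4 and 26 for Cenpa. It did so in 28 for Foxm1 and Kif23. Their highest values were 0.11, 0.27, 0.15 and 0.0052, and none was called in any setting. Plk4 in fl/fl, called higher, was -0.50 with normexp. With each difference of the followed set counted once per setting, 1052 others kept direction and call, 189 lost the call and 43 gained it. Median scaling moved the median of all genes to -0.49 in the LPS genotype comparison. Signal over background limits Anln, Hmmr, Ttk, Kif11, Cdc25c, Kif2c, Bub1 and Pimreg, and for 1 resting fl/fl array Cdk1 and Espl1.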
